A study of Drosophila melanogaster with 57 samples.

Results

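The genes described here are those of Drosophila melanogaster whose FlyBase symbol begins with Sfp and a digit or with Acp and a pair of digits, the names given to seminal fluid proteins and accessory gland proteins. The rule found 46 members among the 17559 genes counted, by symbol alone and with no use of their levels. Their RNA was followed in males in which genes of hydrogen sulphide production had been deleted, in whole bodies and in thoraxes, with females as the background of genes made in a male organ.

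In Drosophila most seminal fluid proteins are made by the paired accessory glands, whose main cells secrete the bulk of them, while the ejaculatory duct and the ejaculatory bulb add proteins of their own. They pass to the female with sperm and there act on ovulation, sperm storage, the mating plug, feeding and the readiness to mate again. Many are small, fast-evolving secreted proteins, among them protease inhibitors, serpins, lectins and peptides, and the function of most is not described. CBS (cystathionine β-synthase) and CSE (cystathionine γ-lyase) are the enzymes of transsulphuration, and MST (mercaptopyruvate sulphurtransferase) acts on a product of cysteine. All 3 can release hydrogen sulphide.

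The control was stock 58492, whose flies carry y1, w1118, a DNAlig4169 mutation and a Cas9 transgene under the Act5C promoter on the X chromosome. From it deletions were made with CRISPR/Cas9, giving 2 strains without CBS, here CBS-/-(5) and CBS-/-(8), and strains CSE-/- and MST-/-, each kept as a single line. For CSE and MST the study's methods say that flies grown from injected embryos were crossed to a yw laboratory strain and chosen by an mCherry reporter under an actin 5C promoter, and for CBS they name the same reporter. The deletion strains thus carry a reporter that the control lacks, and those of CSE and MST part of another background. Crosses through balancer stocks joined the deletions of CBS and CSE into DD1, which carries the CBS(5) deletion, and DD2, which carries the CBS(8) deletion, so that their background differs from that of the control also by those crosses. What a strain owes to its deletion, its reporter and its background cannot be told apart in any comparison with the control. A further male group was labelled DD2 backcrossed on yw. Flies were 5 days old, and sexes were kept apart. Whole females and males of the control and the 6 deletion strains, whole males of the backcross, and thoraxes of both sexes of the control and CBS-/-(5), dissected without ovaries and spermathecae, made 19 groups of 3 libraries. The labels do not say that replicates came from separate cultures, so p-values measure the spread between these libraries. All strain comparisons with the control share its libraries.

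The 57 libraries held 9705034 to 31616200 counts on genes, except the third male library of the backcross, with 7321, which was left out of the tests. In whole males Cbs RNA stood at 55.1 to 61.5 CPM (counts on the gene as a share of all counts on genes, times 1000000) in the control and at most at 0.628 CPM in CBS-/-(5), CBS-/-(8), DD1 and DD2. Cth, which encodes CSE, stood at 58.1 to 71.4 CPM in the control, 15.4 to 26.5 in CSE-/- and 3.14 to 3.95 in DD1 and DD2, and CG12279, the MST gene, at 9.69 to 15.8 in the control and 1.14 to 2.88 in MST-/-. The Cth level of the CSE-/- males lay below the control but above every library of DD1 and DD2, so their RNA goes in part against the label. The study's methods say that DD1 and DD2 came from line CSE-/-(1), while the labels call the single deletion CSE(8). Whether these are the same line is not given. CSE-/- below names the libraries so labelled. The 2 libraries labelled DD2 backcrossed on yw held 33.3 and 34.4 CPM of Cbs and 32.7 and 45.4 CPM of Cth, which goes against a double deletion. Several male libraries held RNA of the female germline and yolk. The share of female RNA was estimated from 22 genes high in females and at most at 1% of that in the lowest male library. They are called germline and yolk genes for short. A low share in the lowest male libraries thus follows in part from the choice. The estimated share was 3.64, 6.04 and 8.87% in control replicates 1 to 3, 8.997 to 16.9% in CSE-/-, 10.8, 35.6 and 1.21% in CBS-/-(5), 22.1, 20.8 and 1.07% in CBS-/-(8), and 0.497 to 1.04% in every library of MST-/-, DD1 and DD2 and the 2 tested libraries of the backcross. An estimate from eggshell genes was higher, up to 83.1% in replicate 2 of CBS-/-(5) and 52.1% in replicate 3 of CSE-/-. Eggshell genes, of which at least 15 of 16 had counts in every whole-male library used, summed to 459.5 to 1087 CPM in control males, 121 to 3778 in CBS-/-(5), 104 to 4544 in CBS-/-(8) and 48.7 to 98.3 in DD1. Counts of members without the libraries of over 20% female RNA, and after subtracting a share of female RNA, are given beside the results that they change by over 1.5 times. Leaving those libraries out leaves 1 library of CBS-/-(8), so no such count is given for comparisons with that strain. Leaving these libraries out and the subtraction by germline and yolk genes were chosen after the data were seen.

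None of the 46 members lies on the X chromosome. The arms 2L, 2R, 3L and 3R (dm6) hold 23, 8, 9 and 6 of them. With gaps of at most 20 kb, 17 members form 5 tandem groups. Sfp24Ba, Sfp24Bd, Sfp24Bb and Sfp24Bc lie at 2L:3667977-3670581, beside Acp24A4 and Sfp24C1 at 2L:3693184-3701092. Sfp26Ac lies with Acp26Ab and Acp26Aa at 2L:5884350-5893896, Sfp33A4 with Sfp33A2 and Sfp33A3 at 2L:11837243-11840329, and Sfp53D with Acp53C14a, Acp53C14b, Acp53Ea and Acp53C14c at 2R:16744295-16751495. The exons of 43 members overlap no other annotated gene. All of Acp95EF overlaps Spase22-23 on the other strand, 19.1% of the exon length of Sfp78E and 3.94% of that of Sfp84E overlap genes on the other strand, and whether the counting used strand is not given in the sources used here. Acp95EF had no count in any library and could not be tested. Acp65Aa fits the symbol rule but is named for adult cuticle protein, and it lay at 0.0681 to 0.372 CPM in control whole males, which goes against the label for this 1 member.

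In control whole males 15 members stood at 100 CPM or more, 25 between 10 and 100, 3 between 1 and 10 (Sfp33A4, Sfp36F and Sfp33A2) and 3 under 1 (Sfp79B, Acp65Aa and Acp95EF). The mean CPM of single members spanned from 0 to 1863. Sfp87B, Sfp60F, Acp54A1 and Acp36DE together made up 56.3% of the CPM of all members. Per kb of exon the order of levels was Sfp87B with 4705 CPM per kb, Sfp60F with 2940, Acp54A1 with 2526 and Sfp24Bb with 779.8. All members together took 0.839, 0.769 and 0.799% of the counts of control males.

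**Figure D1:**
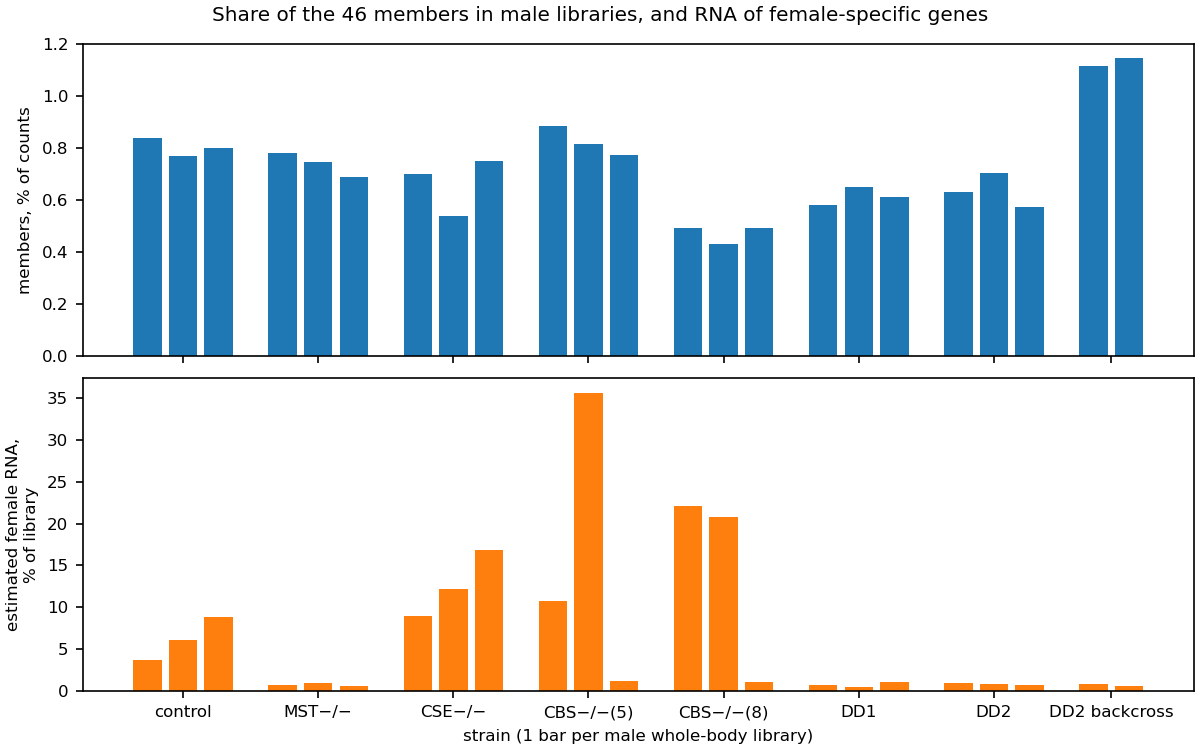
Percent of counts on genes that fell on the 46 members (upper bars) and the estimated percent of female RNA (lower bars) in each whole-male library, grouped by strain, without the third backcross library. CBS-/-(8) has the lowest member shares, 0.431 to 0.493%, and the 2 backcross bars the highest, while the female share runs from 0.497 to 35.6%.

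The share of members was lowest in CBS-/-(8). Members took 0.783, 0.747 and 0.687% of the counts in MST-/-, 0.699, 0.540 and 0.750% in CSE-/-, 0.885, 0.814 and 0.774% in CBS-/-(5) and 0.491, 0.431 and 0.493% in CBS-/-(8). In DD1 they took 0.581, 0.650 and 0.611% and in DD2 0.630, 0.706 and 0.574%. The CBS-/-(8), DD1 and DD2 libraries all lie below the lowest control library, and all CBS-/-(5) libraries lie within or above the range of the control. In whole bodies, fewer secreting cells and less RNA per cell cannot be told apart, here and in every comparison of members. Among 40 members of at least 5 CPM in control males, CBS-/-(8) had the lowest mean of the 7 strains for 29 and CBS-/-(5) the highest for 22. Replicates spread least in DD1 (median coefficient of variation 8.07%) and DD2 (9.40%), and most in CBS-/-(5) (25.2%) and CSE-/- (20.0%), against 10.3% in the control.

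The most abundant member, Sfp87B (FBgn0259975, 3R:12273126-12273521, plus strand), is one of the proteins found in the fluid passed to females. Its level in replicates 1 to 3 was 1990.1, 1747 and 1852 CPM in the control, 1658, 1700.3 and 1507 in MST-/-, 1785, 1334 and 1886 in CSE-/-, 1923, 1268 and 1501 in CBS-/-(5), 842, 895 and 877 in CBS-/-(8), 1018, 1373 and 1272 in DD1 and 1277, 1432 and 1031 in DD2. All libraries of MST-/-, CBS-/-(8), DD1 and DD2 lie below all control libraries, and those of CBS-/-(8) below every other library. Against the control its log2 fold change was -1.04 ± 0.18 SE, adjusted p = 0.000339 in CBS-/-(8), -0.64 ± 0.18 SE, adjusted p = 0.0204 in DD1 and -0.52 ± 0.18 SE, adjusted p = 0.0491 in DD2, all by edgeR's quasi-likelihood test with Benjamini-Hochberg adjustment, as below. Sfp60F (FBgn0259968, 2R:25172245-25172695, minus strand), another protein of the transferred fluid, stood at 1222, 1084 and 1212 CPM in the control, 1121, 1056 and 872 in MST-/-, 1063, 888 and 1362 in CSE-/-, 1202, 1571 and 914 in CBS-/-(5), 555, 621 and 614 in CBS-/-(8), 661, 919.5 and 782 in DD1 and 829, 830.5 and 683 in DD2. It followed Sfp87B, with the CBS-/-(8) libraries below all others, and passed the test in CBS-/-(8) (-0.92 ± 0.19 SE, adjusted p = 0.00182) and DD1 (-0.61 ± 0.19 SE, adjusted p = 0.0432) but not in DD2 (-0.53 ± 0.19 SE, adjusted p = 0.0625).

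Acp54A1 (FBgn0083936, 2R:17133445-17133750, plus strand) has the shortest exon length of the 4 leading members, 306 bases. It stood at 765, 783 and 770.4 CPM in the control, 421, 486 and 415 in MST-/-, 419.9, 287 and 532 in CSE-/-, 754, 1064 and 672 in CBS-/-(5), 388, 213 and 425 in CBS-/-(8), 335, 269.7 and 292 in DD1 and 344, 334 and 253 in DD2. Every library of MST-/-, CSE-/-, CBS-/-(8), DD1 and DD2 lies below every control library, and CBS-/-(5) overlaps the control. It was the member with the largest fall among those of at least 5 CPM in DD1 (-1.40 ± 0.25 SE, adjusted p = 0.000596) and in DD2 (-1.25 ± 0.25 SE, adjusted p = 0.00145). It fell also in CBS-/-(8) (-1.12 ± 0.25 SE, adjusted p = 0.00248) and missed the threshold in MST-/- (-0.80 ± 0.24 SE, adjusted p = 0.124) and CSE-/- (-0.85 ± 0.24 SE, adjusted p = 0.0617).

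Acp36DE (FBgn0011559, 2L:18356047-18359028, minus strand) encodes a large glycoprotein needed for sperm to be stored in the mated female. Its level was 913, 669 and 533 CPM in the control, 1106, 855 and 1042 in MST-/-, 567, 387 and 320.5 in CSE-/-, 959, 161 and 1293 in CBS-/-(5), 940.0, 704 and 798 in CBS-/-(8), 805, 843 and 774 in DD1 and 885, 1153 and 931 in DD2. Replicates of CBS-/-(5) differed more than strains did, and no deletion strain passed the test, with adjusted p from 0.395 in CSE-/- to 0.878 in DD1. Within the control, CSE-/- and CBS-/-(5) its level fell from library to library as the female share rose, with 161 CPM in the CBS-/-(5) library of 35.6%. Of 40 members Acp36DE and Sfp93F did so in all 3 strains, Sfp24F rose with that share in all 3, and none of these did so in CBS-/-(8). The part of female RNA in these levels was not tested for single members.

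Acp53C14a and Acp53Ea are neighbours in the tandem group on 2R. Acp53C14a stood at 382, 366 and 382 CPM in the control, 496, 461 and 416 in CBS-/-(5), 284, 222 and 266 in CBS-/-(8), 352, 384 and 382 in DD1 and 374, 436 and 337 in DD2, with 399, 378 and 317 in MST-/- and 371, 278 and 421 in CSE-/-. Acp53Ea stood at 352, 340.0 and 379 CPM in the control, 447, 496 and 367 in CBS-/-(5), 264, 215 and 243 in CBS-/-(8), 321, 329 and 342 in DD1 and 347, 384 and 308 in DD2, with 329, 338 and 281 in MST-/- and 341, 269 and 387 in CSE-/-. For both, all CBS-/-(8) libraries lie below the control while those of DD1 and DD2 overlap it. The test passed for CBS-/-(8) alone among the 6 strains, with a log2 fold change of -0.49 ± 0.15 SE, adjusted p = 0.0211 for Acp53C14a and -0.51 ± 0.15 SE, adjusted p = 0.0142 for Acp53Ea.

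**Figure D2:**
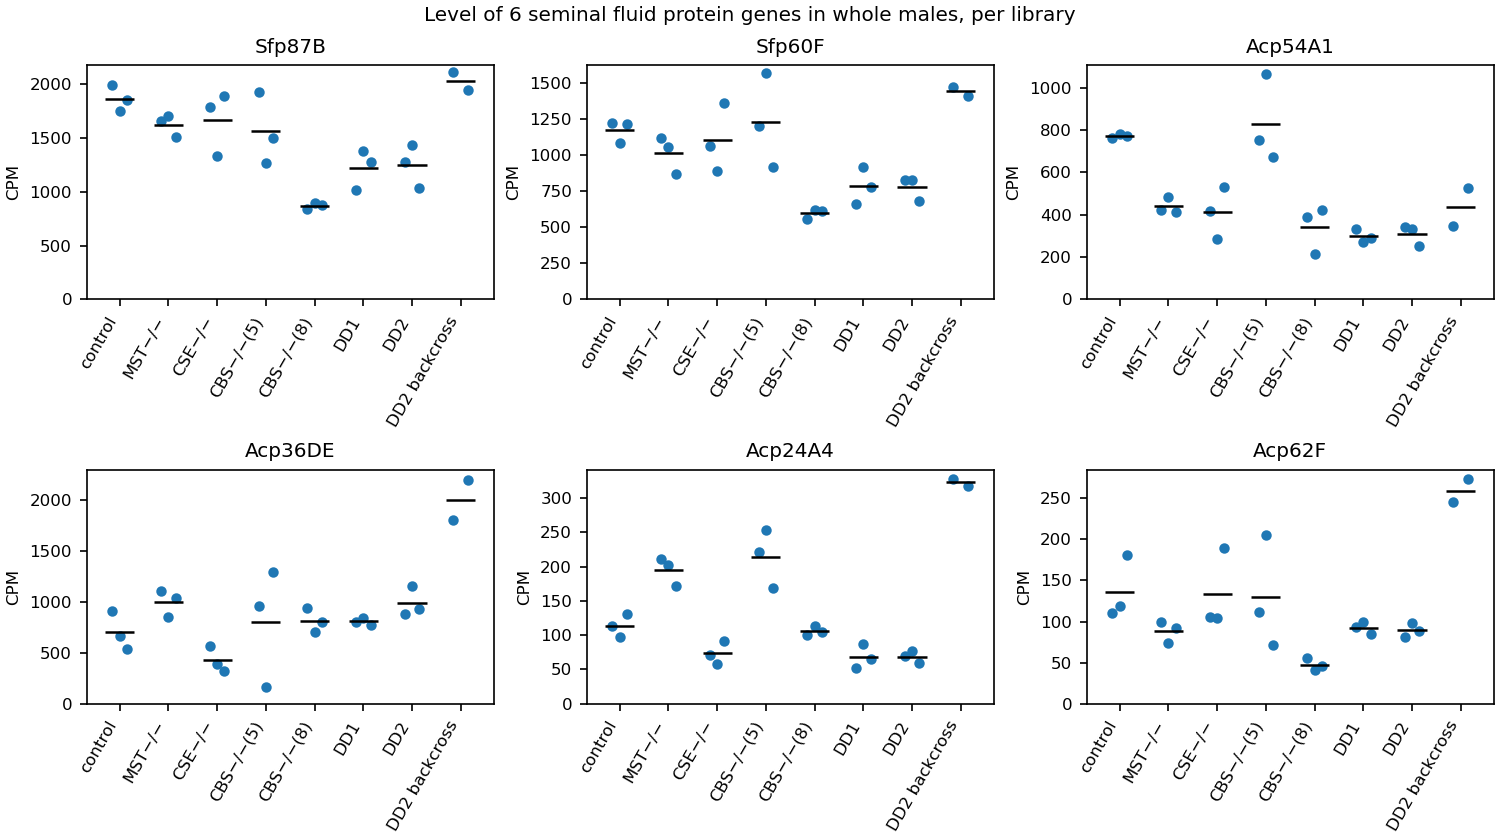
CPM of Sfp87B, Sfp60F, Acp54A1, Acp36DE, Acp24A4 and Acp62F in whole males. Points are libraries, lines the mean of each strain (3 libraries, 2 for the backcross), and each vertical axis starts at 0. Sfp87B and Sfp60F are lowest in CBS-/-(8), at most 895 and 621 CPM, while Acp36DE spreads from 161 to 1293 CPM within CBS-/-(5).

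Members with a described role in the mated female did not share 1 pattern. Acp26Aa is ovulin, which stimulates ovulation, and stood at 241, 202 and 178 CPM in the control, 279.5, 259 and 229 in MST-/-, 170.3, 116 and 146 in CSE-/-, 265, 92.5 and 257 in CBS-/-(5), 171, 128 and 154 in CBS-/-(8), 205, 231 and 212 in DD1 and 238, 261 and 227 in DD2. No strain passed the test for it, and the low CBS-/-(5) value is again that of replicate 2. Acp62F is a protease inhibitor that enters the female circulation, and its levels were 109.9, 119 and 180.4 CPM in the control, 98.9, 74.1 and 92.4 in MST-/-, 106, 105 and 189.8 in CSE-/-, 111, 206 and 71.7 in CBS-/-(5), 55.8, 40.8 and 45.8 in CBS-/-(8), 93.6, 99.4 and 85.4 in DD1 and 81.3, 98.1 and 88.5 in DD2. All CBS-/-(8) libraries lie below all others, and it was the member that fell furthest there (-1.47 ± 0.30 SE, adjusted p = 0.00155). Acp29AB is a lectin that helps to retain stored sperm, at 33.5, 30.7 and 27.02 CPM in the control, 35.8, 34.9 and 28.7 in MST-/-, 28.6, 21.7 and 25.3 in CSE-/-, 42.6, 35.98 and 36.1 in CBS-/-(5), 21.6, 20.5 and 25.5 in CBS-/-(8), 26.1, 28.3 and 28.99 in DD1 and 29.9, 33.6 and 28.7 in DD2. The control lies between the CBS strains without overlap, and Acp29AB passed the test upwards in CBS-/-(5) (0.42 ± 0.14 SE, adjusted p = 0.0265) and downwards in CBS-/-(8) (-0.38 ± 0.14 SE, adjusted p = 0.045).

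Of the 46 members 44 passed the filter on low counts in whole males, all but Acp65Aa and Acp95EF, and were tested among 13036 genes in 1 fit of 21 libraries. Against the control, MST-/- changed 0 of 44 members at an adjusted p under 0.05 by edgeR, where 1.54% of all genes tested were called. At an unadjusted p under 0.05 the count was 7 of 44, where 2170 of the 13036 genes passed. DESeq2 called 1, and the median log2 fold change of members was -0.11 against -0.08 over all genes tested. Without the libraries of over 20% female RNA 2 members were called higher and 1 lower, and a fit of only these 2 strains called 1 each way. In CSE-/- 1 member fell, Sfp51E, a protein of the transferred fluid, where 2.0% of genes were called lower. Sfp51E stood at 51.8, 59.9 and 53.4 CPM in the control, 35.7, 31.99 and 43.97 in CSE-/-, 44.4, 41.4 and 45.2 in MST-/-, 62.1, 72.2 and 53.1 in CBS-/-(5), 29.04, 24.8 and 33.6 in CBS-/-(8), 43.1, 38.2 and 34.6 in DD1 and 27.7, 29.6 and 32.4 in DD2. The CSE-/- libraries lie below those of the control (-0.52 ± 0.14 SE, adjusted p = 0.0394), but the call was lost without control replicate 1, 2 or 3 or CSE-/- replicate 2, and 3 members were called without CSE-/- replicate 3. After either subtraction of female RNA 0 members were called, without the libraries of over 20% 3 lower and 1 higher, with factors set on genes seen in thoraxes 5 lower, in a fit of only the 2 strains 2 lower and by DESeq2 3 lower.

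In CBS-/-(5) more members were called higher than lower. The test called 11 of 44 members higher, where 14.6% of all genes were called higher, and 1 lower, where 18.1% were called lower. The median log2 fold change was 0.27 for members and 0.03 for all genes tested. Those called higher were Acp24A4, Acp29AB, Acp53C14c, Sfp23F, Sfp24Bc, Sfp26Ac, Sfp33A1, Sfp33A2, Sfp53D, Sfp77F and Sfp79B. Acp24A4 (FBgn0051779, 2L:3693184-3693905, minus strand) stood at 113, 96.9 and 131 CPM in the control, 221, 253 and 169 in CBS-/-(5), 211, 202 and 172 in MST-/-, 71.4, 58.1 and 92.01 in CSE-/-, 100.3, 114 and 104 in CBS-/-(8), 52.8, 86.7 and 65.8 in DD1 and 69.1, 77.7 and 59.9 in DD2. It was higher in all CBS-/-(5) libraries than in any control library (1.00 ± 0.20 SE, adjusted p = 0.00177), also higher without overlap in MST-/- at an adjusted p of 0.057, and lower without overlap in CSE-/-, DD1 and DD2. Sfp33A2 had low levels, 4.18, 4.32 and 6.40 CPM in the control, 8.84, 20.99 and 7.51 in CBS-/-(5), 5.77, 5.49 and 3.50 in MST-/-, 6.80, 5.48 and 10.2 in CSE-/-, 6.38, 4.19 and 6.78 in CBS-/-(8), 8.85, 6.29 and 6.06 in DD1 and 9.65, 10.3 and 8.63 in DD2. It rose in CBS-/-(5) without overlap (1.41 ± 0.35 SE, adjusted p = 0.00659), and DD2 also lay above the control at an adjusted p of 0.0557. The 1 member that fell, Sfp84E, stood at 20.5, 20.9 and 18.2 CPM in the control, 15.4, 11.5 and 13.01 in CBS-/-(5), 20.1, 17.03 and 19.9 in MST-/-, 20.1, 14.6 and 15.1 in CSE-/-, 8.51, 8.11 and 10.4 in CBS-/-(8), 15.7, 12.4 and 13.5 in DD1 and 10.5, 11.4 and 15.2 in DD2. It was lower than in any control library in both CBS strains, DD1 and DD2, and was called in all 4, with -0.49 ± 0.16 SE, adjusted p = 0.0246 in CBS-/-(5) and -1.08 ± 0.16 SE, adjusted p = 7.26e-05 in CBS-/-(8). In place of 12 calls there were 6, 5 and 7 without control replicates 1, 2 and 3, 5 higher and 2 lower with factors set on genes seen in thoraxes, and 2 in a fit of only these 2 strains. Female RNA made up 35.6% of replicate 2, and 3 members were called after subtraction of the eggshell share.

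In CBS-/-(8) 25 of 44 members fell and 0 rose by the test, where 19.6% of all genes were called lower. The fold changes of 40 members were below 0 and of 4 above, with a median log2 value of -0.59 against 0.02 for all genes tested. Of 40 members of at least 5 CPM in the control, 39 had a lower mean than the control, with a median of 63.4% of the control level and a lowest of 34.8% for Acp62F. Acp36DE, at 115.4%, was the exception. After Acp62F the largest fall was that of Sfp24Ba in the tandem group on 2L, from 81.3, 79.4 and 119.6 CPM in the control to 32.3, 38.7 and 28.6 in CBS-/-(8), against 86.97, 65.9 and 73.7 in MST-/-, 60.3, 54.7 and 94.1 in CSE-/-, 82.9, 159.6 and 62.4 in CBS-/-(5), 46.3, 66.4 and 61.7 in DD1 and 47.4, 55.1 and 53.9 in DD2. Its CBS-/-(8) libraries lie below all of these (-1.43 ± 0.28 SE, adjusted p = 0.00113). The lowered members included all 4 tested Acp53 genes of the tandem group on 2R, the serpin gene Acp76A, Acp32CD, Acp33A, Acp63F, Sfp24Bb, Sfp24Bd, Sfp24F, Sfp26Ad, Sfp33A3, Sfp38D, Sfp65A, Sfp77F, Sfp78E and Sfp84E. Female RNA stood at 22.1 and 20.8% in CBS-/-(8) replicates 1 and 2 and at 1.07% in replicate 3. Without the libraries of over 20% female RNA 1 library of CBS-/-(8) is left, so no count is given. After subtraction of the germline and yolk share 14 members were called, and after subtraction of a share set from eggshell genes 4. In replicate 3 alone, 38 of 40 members were lower than in control replicate 1 (3.64% female RNA), with a median of 68.5%, a description of 2 libraries without a test.

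Both double deletion strains had lower levels of a smaller group. In DD1 the test called 10 of 44 members lower, where 7.29% of all genes were called lower, and 0 higher, with a median log2 fold change of -0.17 for members and -0.02 for all genes. In DD2 it called 8 lower, where 9.73% of genes were, and 1 higher, where 8.24% were, with a median of -0.07 against -0.03 for all genes. Acp24A4, Acp54A1, Sfp24Bb, Sfp51E, Sfp78E, Sfp84E and Sfp87B are in both lists of lowered members, which share the control libraries. Sfp24Bb stood at 367, 327 and 373 CPM in the control, 173, 242 and 198 in DD1, 209, 233 and 183 in DD2, 317, 289 and 305 in MST-/-, 282, 191 and 269 in CSE-/-, 312, 401 and 225 in CBS-/-(5) and 125, 134 and 128 in CBS-/-(8). All strains but CBS-/-(5) lay below the control without overlap, and CBS-/-(8) lowest, with calls in DD1 (-0.83 ± 0.18 SE, adjusted p = 0.00432), DD2 (-0.71 ± 0.18 SE, adjusted p = 0.0116) and CBS-/-(8) (-1.40 ± 0.19 SE, adjusted p = 2.71e-05). Sfp78E stood at 41.6, 51.4 and 51.7 CPM in the control, 36.1, 31.1 and 30.1 in DD1, 24.2, 26.3 and 27.9 in DD2, 35.3, 33.7 and 40.7 in MST-/-, 37.4, 36.01 and 49.5 in CSE-/-, 37.8, 55.2 and 33.7 in CBS-/-(5) and 21.9, 16.6 and 22.3 in CBS-/-(8). It too was lowest in CBS-/-(8), and it was called lower there (-1.20 ± 0.17 SE, adjusted p = 6.32e-05), in DD2 (-0.83 ± 0.17 SE, adjusted p = 0.00209) and in DD1 (-0.61 ± 0.17 SE, adjusted p = 0.0225), while MST-/- lay below the control without overlap at an adjusted p of 0.265. These strains hold at most 1.04% female RNA and the control 3.64 to 8.87%. The count in DD1 went from 10 to 6, 5 or 6 without control replicate 1, 2 or 3, to 5 without DD1 replicate 1 and to 3 without DD1 replicate 3, and that in DD2 from 9 to 4 without DD2 replicate 1. In DD2 upper-quartile factors gave 3 higher and 5 lower, DESeq2 3 and 9, factors without the members 2 and 6, factors set on genes seen in thoraxes 1 and 13, a fit of only the 2 strains 3 and 12, and the fit without the libraries of over 20% female RNA 3 and 11. Subtraction of the eggshell share left 5 calls in DD1 and 5 in DD2, all of them lower. Between DD2 and DD1 edgeR called 0 of 44 members, where 0.782% of genes were called, and DESeq2 called 0. At an unadjusted p under 0.05 there were 3 members, where 1286 of 13036 genes passed.

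**Figure D3:**
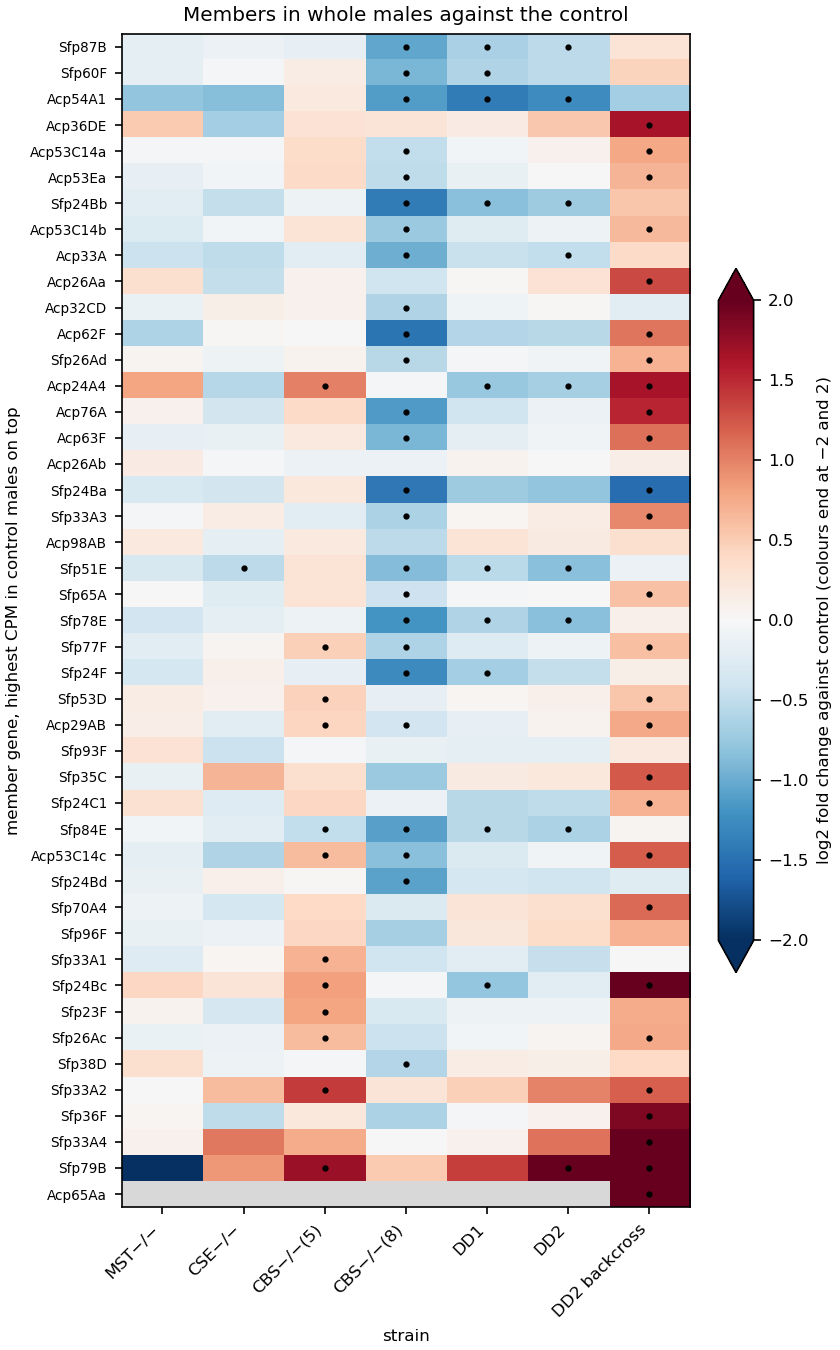
Log2 fold change of each tested member (rows, ordered by level in control males) in whole males of each strain (columns) against the control, with colour from blue (lower) to red (higher) and dots where the adjusted p is under 0.05. Grey marks a member that was not tested. The CBS-/-(8) column is blue in 40 of 44 rows with 25 dots, and the backcross column is red in 39 of 45. Its red rows include Acp65Aa, which was tested in that column alone.

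The CBS strains, which carry separate deletions of 1 gene, differed from each other. Of 44 members CBS-/-(8) had lower levels of 31 than CBS-/-(5), where 4.81% of all genes were called lower, and higher levels of 0. All 44 fold changes were below 0, with a median log2 of -0.95 against -0.02 for all genes tested. Among those named, Acp62F had a log2 fold change of -1.48 ± 0.30 SE, adjusted p = 0.0053, Sfp24Ba of -1.64 ± 0.28 SE, adjusted p = 0.00145, Acp54A1 of -1.32 ± 0.25 SE, adjusted p = 0.00264 and Sfp87B of -0.88 ± 0.18 SE, adjusted p = 0.00502. Acp36DE (-0.03 ± 0.43 SE, adjusted p = 0.981) and Acp26Aa (-0.48 ± 0.27 SE, adjusted p = 0.315) did not pass the test. In the pair of libraries with least female RNA, replicate 3 of each strain (1.07 and 1.21%), all 40 members of at least 5 CPM in the control were lower in CBS-/-(8), at a median of 67.2% and from 33.8 to 99.3%. Leaving out the 3 libraries of over 20% female RNA leaves 1 library of CBS-/-(8) and 2 of CBS-/-(5), so no count is given. After eggshell subtraction 3 members were called, and in a fit of the 6 libraries of these strains alone 1.

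Each double deletion was also set against the CBS strain whose deletion it carries. In DD1 24 of 44 members were lower than in CBS-/-(5), where 19.8% of all genes were called lower, and 0 higher, with a median log2 fold change of -0.49 against -0.03 for all genes. In DD2 15 of 44 were higher than in CBS-/-(8), where 4.83% of genes were called higher, and 0 lower, with a median of 0.55 against 0.01. Acp24A4 fell most of all members in DD1 against CBS-/-(5) (-1.77 ± 0.21 SE, adjusted p = 2.03e-05), and Acp54A1 fell as well (-1.60 ± 0.25 SE, adjusted p = 0.000346), while in DD2 against CBS-/-(8) these had values of -0.62 ± 0.20 SE, adjusted p = 0.0598 and -0.13 ± 0.24 SE, adjusted p = 0.769. Acp53C14a and Acp53Ea fell in the first comparison, by 0.42 and 0.52 on the log2 scale, and rose in the second, by 0.57 and 0.52. The difference of these differences, a comparison added after the data were seen, passed the test for 22 of 44 members, all of them in the direction of DD1 below CBS-/-(5) beside DD2 above CBS-/-(8), where 2.8% of genes were called in that direction. Its median log2 value was -1.04 against -0.01 for all genes tested, and 43 of 44 values were below 0. For Acp53Ea it was -1.05 ± 0.21 SE, adjusted p = 0.00837, for Acp29AB -1.03 ± 0.20 SE, adjusted p = 0.00587 and for Sfp24Bb -1.43 ± 0.26 SE, adjusted p = 0.00454. It is made of the CBS-/-(8) and CBS-/-(5) difference above and the small difference of DD2 and DD1, not of independent data.

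The counts for the double deletions rest on few libraries. For DD1 against CBS-/-(5) the 24 calls became 10 without DD1 replicate 1 and 13 without CBS-/-(5) replicate 2, the library of 35.6% female RNA. For DD2 against CBS-/-(8) the 15 became 5 and 4 without DD2 replicates 1 and 2, and 8 and 4 without CBS-/-(8) replicates 1 and 2. The 22 of the difference became 12, 14 and 11 without DD1 replicates 1, 2 and 3, 13 and 9 without DD2 replicates 1 and 2, and 14 and 13 without CBS-/-(8) replicates 1 and 2. Without the libraries of over 20% female RNA the count for DD1 against CBS-/-(5) was 13. For the other comparisons 1 library of CBS-/-(8) is left, so no count is given. In fits of only the groups compared the 3 counts were 7, 4 and 6. Subtraction of the eggshell share gave 23, 1 and 0 calls, the 1 of them lower in DD2 where 15 had been higher, and subtraction of the germline and yolk share 30, 2 (1 each way) and 7. Factors set on genes seen in thoraxes gave 13 for the difference. All 16 eggshell genes and all 3 yolk genes were called lower in DD1 than in CBS-/-(5), where 19.8% of all genes were. The same genes were all called lower in DD2 than in CBS-/-(8), where 1186 of 13036 genes were called in either direction.

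**Figure D4:**
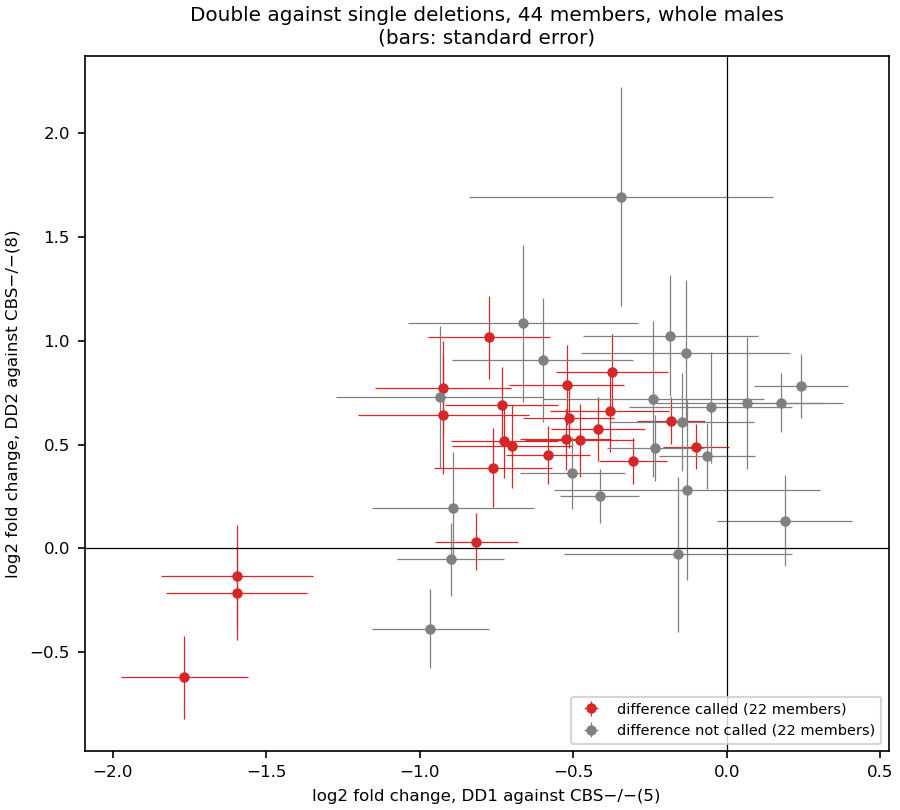
Log2 fold change of each of the 44 tested members in DD2 against CBS-/-(8) (vertical axis) and in DD1 against CBS-/-(5) (horizontal axis), in whole males, with 1 point per member and colour for the test of the difference between them. Of the points, 40 lie left of 0 and 38 above 0. The axes share no libraries.

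The libraries labelled DD2 backcrossed on yw had the highest member shares, 1.12% and 1.14% in replicates 1 and 2. Against the control 26 of 45 tested members were higher, where 7.71% of all genes were called higher, and 1 was lower, where 8.32% were, with a median log2 fold change of 0.69 for members and -0.05 for all genes. Against DD2 32 of 45 were higher, where 10.9% of genes were, and 0 lower. After subtraction of the eggshell share these counts were 10 higher and 12 higher. Among members of at least 5 CPM in the control the median level was 139.5% of the control, from 31.3% for Sfp24Ba to 366% for Sfp24Bc. Sfp24Ba was 29.2 and 29.3 CPM, below all control libraries (-1.53 ± 0.32 SE, adjusted p = 0.00187). Sfp24Bd, the gene next to it, was 15.2 and 14.0 CPM against 17.9, 18.7 and 20.6 in the control, also below but not called. Sfp24Bb of the same tandem group was 495 and 444 CPM, and Acp24A4 of the group beside it 328 and 318 CPM. Acp36DE stood at 1805 and 2197 CPM and Acp26Aa at 434 and 502 CPM, above every other male library. Sfp79B, at 0.418, 0.223 and 0.613 CPM in the control, was 13.7 and 10.3 CPM (4.95 ± 0.53 SE, adjusted p = 1.64e-06), and Acp54A1 was 345 and 526 CPM, below the control (-0.69 ± 0.28 SE, adjusted p = 0.109). Acp65Aa, the cuticle gene, was 202 and 48.5 CPM and at most 0.555 CPM in every other whole-male library (9.38 ± 0.63 SE). Its call, counted among the 26 and the 32, was fixed by the filter, which it passed only through the backcross libraries. In the same libraries all 9 flight muscle genes were called higher than in the control, and they summed to 16533 to 18882 CPM against 4853 to 5742. Their part in the members' levels was not tested, nor was that of the yw background, which cannot be told apart from the presence of Cbs and Cth RNA.

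The accessory glands lie in the abdomen. Members took 0.0336, 0.169 and 0.0056% of the counts of the control thoraxes and 0.104, 0.0986 and 0.251% of those of CBS-/-(5), against 0.769 to 0.839% in control whole males. Reads assigned to no gene were 25.0, 28.3 and 4.56% in these control thoraxes and 28.7, 28.1 and 22.0% in those of CBS-/-(5). They were 1.21 to 1.44% in control whole males. The control thorax with the lowest member share thus differs from the other thoraxes also in this, and its part was not tested. In control thoraxes 37 of 45 tested members were lower than in whole males, where 30.5% of all genes were called lower, and 1 was higher, Acp65Aa, where 26.5% were, with a median log2 fold change of -3.46 against -0.01 for all genes. Acp65Aa did not pass the filter in whole males alone and entered this fit through the thoraxes. Leaving out thorax replicate 1 or 3 changed the 38 calls to 25 or 22. Between CBS-/-(5) and control thoraxes 0 of 43 members were called by edgeR, where 1.85% of genes were, and 0 by DESeq2. At an unadjusted p under 0.05 0 passed, where 1186 of 11337 genes did, although the median log2 fold change was 2.10. The replicates differed by more than the groups. For the difference between the effects of CBS-/-(5) in thorax and in whole body, 0 of 45 were called, where 0.123% of genes were, and 0 by DESeq2. At an unadjusted p under 0.05 there was 1, where 1624 of 12992 genes passed.

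The thorax libraries differed in which members they held. This grouping was chosen after the values were seen and is a description. Sfp87B, Sfp60F, Acp24A4 and the 4 Sfp24B genes were over 10 times higher in CBS-/-(5) thorax 1 than in thorax 2, and their median level as a percent of control whole males was 6.59, 34.6 and 0.431% in control thoraxes 1 to 3 and 25.2, 0.030 and 0.494% in those of CBS-/-(5). Sfp87B itself was 126, 645 and 12.4 CPM in the control thoraxes and 469, 0.641 and 11.9 CPM in those of CBS-/-(5), and Sfp60F was 45.1, 348 and 6.45 and 340.2, 0.481 and 5.80 CPM. Another 31 members were low in CBS-/-(5) thorax 1 and high in thoraxes 2 and 3, with medians of 3.58, 11.4 and 0.668% in the control and 1.03, 24.3 and 49.4% in CBS-/-(5). Acp36DE, for 1, was 14.3, 94.98 and 3.06 CPM in the control thoraxes and 6.97, 223 and 468 CPM in those of CBS-/-(5). Acp54A1 and Sfp93F made a pattern of their own, with 50.8 and 139.9% of the whole-male level in CBS-/-(5) thorax 3 and at most 7.39% in the other 5 thoraxes. Acp54A1 was 2.71, 3.29 and 3.38 CPM in the control thoraxes and 1.32, 2.19 and 393 CPM in those of CBS-/-(5).

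Some known genes of separate male organs also differed between these libraries. Ebp and EbpII, which encode proteins of the ejaculatory bulb that form the mating plug, were high and low with the first group, Ebp at 114.6, 1262 and 20.8 CPM in the control thoraxes and 1072, 0.427 and 18.3 in those of CBS-/-(5), EbpII at 77.7, 466 and 6.37 and 476, 0.962 and 7.96 CPM. Dup99B, a peptide gene of the ejaculatory duct, was 1.32, 2.63 and 1.29 and 1.64, 0.962 and 197 CPM, and Anp, an antimicrobial peptide gene of the duct, was 0.964, 0.790 and 0.322 and 0.263, 0.321 and 107 CPM, both high in CBS-/-(5) thorax 3 alone, as Acp54A1 and Sfp93F were. SP, the sex peptide gene of the accessory gland main cells, was 4.88, 18.9 and 1.53 and 1.18, 45.3 and 89.5 CPM. It had the order of the medians of the 31 members except in the lowest pair, control thorax 3 and CBS-/-(5) thorax 1, which was reversed. The duct and bulb list as a whole, 7 of 7 genes with counts in every thorax, summed to 2101 to 3462 CPM in the control and 1757 to 3580 in CBS-/-(5). It summed to 1757 CPM in CBS-/-(5) thorax 2, where Ebp, EbpII, Dup99B and Anp were nearly absent. The rest of the list, Gld, Est-6 and EbpIII, thus stayed high there as a sum and did not follow the first group. In female thoraxes the list summed to 188 to 1820 CPM in the control and 1352 to 2024 in CBS-/-(5). The part of tissue carried over in dissection was not tested. In whole males, the 7 members of this first group gave 5 of the 10 members lowered in DD1 and 3 of the 8 in DD2. Of all genes, 7.29 and 9.73% were called lower. Their medians were -0.72 and -0.53 on the log2 scale, against -0.09 and 0.01 for the other 37. In CBS-/-(8) 5 of the 7 were lower, where 19.6% of genes were, with a median of -1.04 against -0.56. In CBS-/-(5) 2 were higher, where 14.6% of genes were, with a median of 0.16 against 0.27. In MST-/- and CSE-/- 0 were called, with medians of -0.19 and -0.11 against -0.05 and -0.12.

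**Figure D5:**
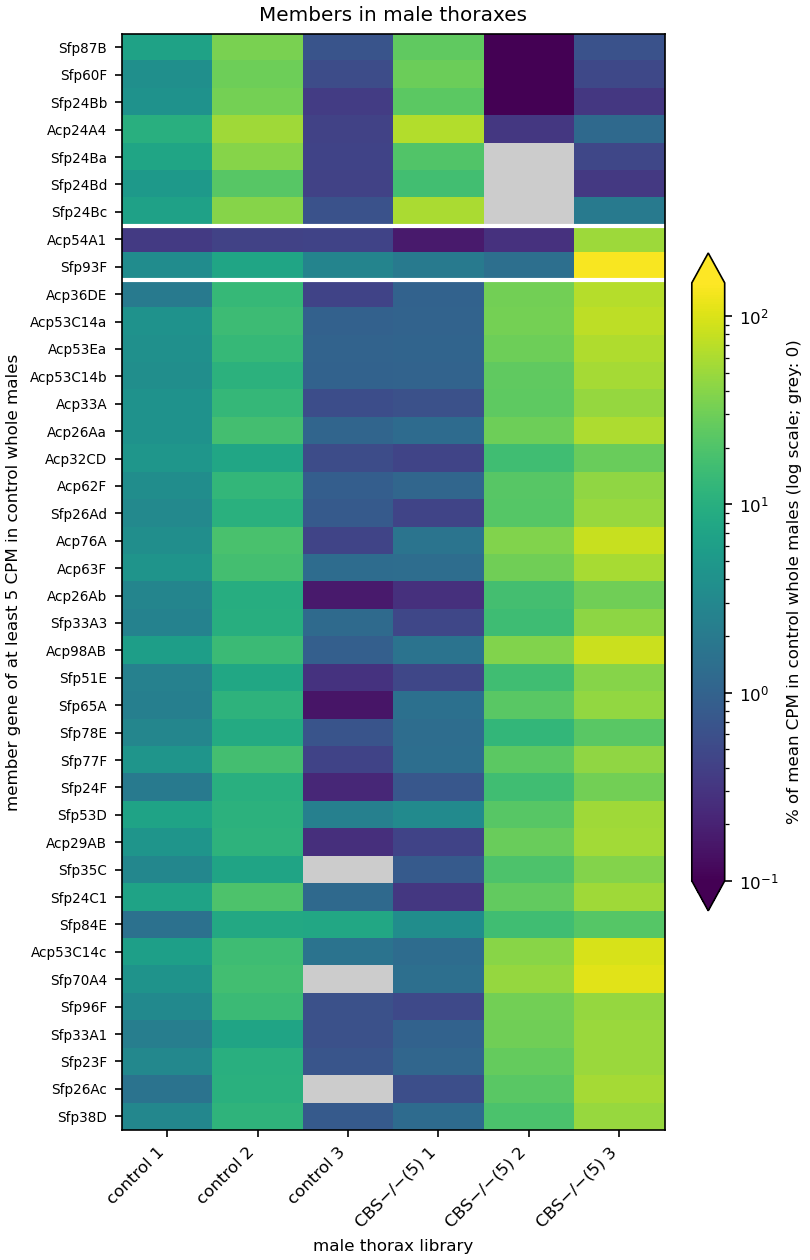
Level of the 40 members of at least 5 CPM in control whole males (rows) in the 6 male thorax libraries (columns), as a percent of the mean CPM of control whole males, with colour on a log scale and grey for 0. White lines part the 7, 2 and 31 members described in the text. The 7 are high in control 2 and CBS-/-(5) 1 (medians 34.6 and 25.2%), and the 31 in CBS-/-(5) 2 and 3 (24.3 and 49.4%).

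Females held almost none of these RNAs. The summed level of members was 8021 CPM in control males and 2.36 CPM in control females, a ratio of 3393, and 26 members had no count in any of the 3 control female libraries. By the test 44 of 45 members were lower in females, where 53.4% of all genes were called lower, and the exception was Acp65Aa. In a fit of females alone only 3 members passed the filter. Most thus entered this test through the male libraries, so its outcome was largely fixed beforehand. For Sfp60F, at 0 in all control females, the level in males was at least 24873-fold higher, with 3 counts over the group as the floor, and for Sfp24Bb at least 7539.9-fold. Of the 6 members with over 3 counts in a control female library the highest were Acp65Aa at 0.598 CPM, Sfp84E at 0.504 and Sfp78E at 0.363, and the latter pair overlap genes on the other strand. In whole females other than DD1 replicate 2, members took 33 to 254 counts a library, 0.000125 to 0.00114%, from 12 to 19 members. In DD1 replicate 2 they took 11201 counts, 0.0423%, from 45 members, with Sfp87B at 57.6 CPM against 0 and 0.127 in the other 2 DD1 libraries. In that library Ebp stood at 0.0440, 198 and 0.169, EbpII at 0.133, 63.5 and 0, Dup99B at 0.0440, 44.2 and 0.0420 and SP at 0, 9.90 and 0 CPM (DD1 replicates 1 to 3), and the testis list had 1 gene of 16 at 0 against 10 and 9.

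Only 3 members passed the filter in females, Acp53C14a, Acp65Aa and Sfp84E. In MST-/- and CSE-/- females 0 of 3 were called by edgeR, where 0.891 and 2.73% of genes were, and 0 by DESeq2. At an unadjusted p under 0.05 there were 0, where 842 and 1585 of 10548 genes passed. Sfp84E was 0.337, 0.524 and 0.651 CPM in control females, 0.0442, 0.139 and 0 in CBS-/-(5) and 0.0878, 0.0482 and 0.0510 in CBS-/-(8), without overlap, with 0.272, 0.372 and 0.591 in MST-/-, 1.01, 0.650 and 0.637 in CSE-/- and 0.120, 0.0991 and 0.314 in DD2. It was called lower in CBS-/-(5) (-2.85 ± 0.95 SE, adjusted p = 0.0499), where 3.89% of genes were, and in CBS-/-(8) (-2.89 ± 1.00 SE, adjusted p = 0.0427), where 8.0% were. Leaving out any 1 library of either group took the second call away, and the first was kept only without CBS-/-(5) replicate 2. Acp53C14a was called higher in DD1 (5.77 ± 1.47 SE, adjusted p = 0.00831), where 16.6% of genes were, on values of 0.177, 29.2 and 0.296 CPM against 0.193, 0.131 and 0.2004 in the control, so on replicate 2 alone. Without that library it had a value of 0.39 ± 1.01 SE (adjusted p = 0.775), and Sfp84E was called lower instead (-4.27 ± 0.91 SE, adjusted p = 0.00437), with 0 and 0.0422 CPM in DD1 replicates 1 and 3 and 0.718 CPM in replicate 2. Acp65Aa was called higher in DD2 (2.83 ± 0.75 SE, adjusted p = 0.004), where 34.4% of genes were, at 3.12, 0.644 and 8.85 CPM against 0.963, 0.481 and 0.351 in the control, which overlap, and the call was lost without DD2 replicate 3.

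Other seminal fluid genes, a list of 45 outside the symbol rule of which 43 were tested in whole males, were counted in the same comparisons. Higher and lower counts were 0 and 0 in MST-/-, 0 and 1 in CSE-/-, 3 and 4 in CBS-/-(5), 2 and 23 in CBS-/-(8), 1 and 6 in DD1 and 1 and 6 in DD2. Of all genes tested, 1.54% were called in MST-/-, 2.0% lower in CSE-/-, 14.6 and 18.1% higher and lower in CBS-/-(5), 12.8 and 19.6% in CBS-/-(8), 5.37 and 7.29% in DD1 and 8.24 and 9.73% in DD2. As a share of the 43, the genes called lower were above that background in CBS-/-(8), DD1 and DD2 and below it in CBS-/-(5), and the genes called higher were below it in all 4. The 1 gene lowered in CSE-/- was CG18284, from 281 to 69.6 CPM (-1.97 ± 0.19 SE, adjusted p = 3.74e-06), and it was lowered in every other strain but MST-/- as well, to 92.9 CPM in DD1, 102.7 in DD2, 117 in CBS-/-(8) and 173 in CBS-/-(5), with adjusted p of at most 0.0187. The serpin gene Spn77Bb fell in CBS-/-(8) from 554 to 181 CPM (-1.55 ± 0.15 SE, adjusted p = 9.94e-07), and also in CBS-/-(5), DD1 and DD2, to 332, 239.5 and 253 CPM, with adjusted p of at most 0.00485. Obp56f, of the odorant-binding protein family, fell in CBS-/-(8) from 35.7 to 12.2 CPM (-1.49 ± 0.14 SE, adjusted p = 4.18e-07) and in CBS-/-(5) to 22.5 CPM (-0.57 ± 0.13 SE, adjusted p = 0.00506). The gene hdly rose in CBS-/-(8) from 57.6 to 134 CPM (1.28 ± 0.11 SE, adjusted p = 1.11e-07) and also in CBS-/-(5), DD1 and DD2, to 85.2, 77.1 and 75.2 CPM, with adjusted p of at most 0.0177. SP was lower in CBS-/-(8) than in CBS-/-(5), 93.1 against 226 CPM (-1.31 ± 0.29 SE, adjusted p = 0.00935), where 1 gene of the list was higher and 21 lower and 1.67 and 4.81% of all genes were. Of 6 regulators of accessory gland development 0 were called in MST-/- and CBS-/-(8) against the control. In CBS-/-(5) 1 was lower, where 18.1% of all genes were. In DD1 and DD2 1 each was higher, where 5.37 and 8.24% of all genes were. In CSE-/- 1 was higher, where 483 of 13036 genes were called in either direction. The regulators summed to 100.5 to 117 CPM in CBS-/-(8) and 118 to 142 in the control.

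Across the 21 whole-male libraries of the 7 strains, the genes outside the members whose level was most like the summed level of members were EbpII (Pearson r 0.91), Ebp (0.89) and the serpin gene Spn38F (0.89), of 6691 genes of at least 20 CPM. The libraries share strain, depth and female RNA, so this is a description of likeness. The duct and bulb list, 7 genes with counts in every whole-male library, summed to 9107 to 10361 CPM in the control, 7770 to 9056 in CBS-/-(5) and 5627 to 6164 in CBS-/-(8). Of these 7, 4 were called lower in CBS-/-(8), where 19.6% of all genes were. In DD2 4 were lower, where 9.73% of genes were, and in DD1 3, where 7.29% were. In CBS-/-(5) 2 were lower and 1 higher, where 18.1 and 14.6% of genes were. In MST-/- and CSE-/- 0 were called, where 201 and 483 of 13036 genes were. Of 15 tested testis genes 7 were called lower in CBS-/-(5), where 18.1% of all genes were, 13 in CBS-/-(8), where 19.6% were, and 4 in DD2, where 9.73% were, with 0 in MST-/-, CSE-/- and DD1 and 0 higher in any. Testis genes summed to 3145 to 4384 CPM in the control, 1306 to 2564 in CBS-/-(5) and 1207 to 2025 in CBS-/-(8), and their part in the members' levels was not tested.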

How the data were processed

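Polyadenylated RNA of whole flies and thoraxes was sequenced with a directional kit as single-end reads. The authors' deposited files hold whole-number counts of reads per FlyBase gene, not normalized. The submitters' processing notes name FastQC, Trimmomatic 0.38, STAR 2.5.0a and featureCounts 1.5.0-p1, the study's methods name dm6, and the annotation release and the strand setting are not given in the sources used here. Reads assigned to no gene or to several were 0.482 to 37.5% and 3.34 to 31.3% of a library's reads on a single gene, on none or on several. They stayed out of library sizes. CPM are counts divided by all counts on genes, times 1000000. Levels behind which lie few counts have the larger error, and ratios to a floor of 3 counts and intervals cover counting error only.

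Members were found by symbol through the Ensembl annotation BDGP6.54. The members and lists were chosen with earlier results of these data known. Groups followed the labels. Differences were tested with edgeR 4.0.16 (quasi-likelihood, TMM factors, low genes dropped by filterByExpr at min.count 10 and min.total.count 15) in R 4.3.3, with Benjamini-Hochberg adjustment over all genes tested and calls at an adjusted p under 0.05, after the code had been checked on simulated counts. The 21 whole-male libraries of 7 strains shared 1 fit, and the backcross, the thoraxes (6 libraries), thorax against whole males (12) and the females had fits of their own. Libraries under 1000000 counts were left out. Alternatives were DESeq2 1.42.0, other scaling factors, no filter, a replicate block, fits of only the groups compared, subtraction of female RNA and leaving out libraries. The share of female RNA came from 22 genes of at least 50 CPM in females of every strain and at most 1% of that in the lowest male library. These were chosen by level alone, without regard to tissue. They hold osk, bcd, Yp1, Yp2 and Yp3 but also Fad2 and Cyp6a19, and are called germline and yolk genes for short. Values in every whole-male library of the 7 strains are given for the 6 highest members in control males, up to 2 members that rose and 2 that fell most in each strain, and Acp26Aa, Acp36DE, Acp62F and Acp29AB, whose function is known, and members called in females are given for the groups compared. Same-numbered replicates did not deviate together (mean correlation -0.03 over 63 pairs in whole males), so numbers were not used as pairs.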

Additional observations from a re-analysis of the deposited data

Results flagged for a closer look

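CBS-/-(8) and CBS-/-(5), which carry separate deletions of CBS, differed in 31 of 44 tested members in whole males, all lower in CBS-/-(8), by a test of the difference itself. That count was 3 after subtraction of the eggshell share and 1 in a fit of only these groups. The difference between the double deletions and their CBS strains was also not alike in DD1 and DD2, with 22 of 44 members past a test of that difference, all in the direction of DD1 below CBS-/-(5) beside DD2 above CBS-/-(8). There were 7 calls after subtraction of the germline and yolk share, 6 in a fit of only the groups compared and 0 after subtraction of the eggshell share. The count thus depends on the setting, and the cause was not tested. The backcross male library left out for its depth held 54 member counts among 7321, or 0.738% (95% exact interval 0.555 to 0.961%), above the 0.041% that a count of 0 would allow and below the 1.12 and 1.14% of the other 2 libraries of its label. The DD1 female library of replicate 2 held 0.0423% member counts against 0.000125 to 0.00114% in the other 20 whole-female libraries. Groups of 3 libraries are too small for a test of single outlying libraries.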

How the results depend on the processing

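Counts of called members depended on the setting, while 0 of the called fold changes of named members turned in sign (130 fold changes, 40 of them called under every alternative, with 1568 alternative values still called and 409 not). In the order MST-/-, CSE-/-, CBS-/-(5), CBS-/-(8), DD1, DD2, the main counts were 0, 1, 12, 25, 10 and 9. Upper-quartile factors gave 0 in CSE-/- and 0 in CBS-/-(5) females. Factors from genes seen in thoraxes gave 5 in CSE-/-, 7 in CBS-/-(5), 14 in DD2, 13 for the difference of the double deletions, and 2 in CBS-/-(8) and 2 in DD2 females. Factors without the members gave 1 in MST-/- and 0 in CSE-/-. With no filter the counts were 1 in MST-/-, 0 in CSE-/-, and 0, 0 and 19 in CBS-/-(5), CBS-/-(8) and DD1 females. A replicate block gave 0 in CSE-/- and 0 in CBS-/-(5) females, with 11, 24, 9 and 8 in CBS-/-(5), CBS-/-(8), DD1 and DD2 males, though the numbers do not pair the libraries, and it moved no other count by over 1.5 times. Fits of only the groups compared gave 2 in MST-/-, 2 in CSE-/-, 2 in CBS-/-(5), 15 in DD2, 7 for DD1 against CBS-/-(5), 4 for DD2 against CBS-/-(8), 1 for CBS-/-(8) against CBS-/-(5), 6 for the difference of the double deletions and 0 in CBS-/-(5), CBS-/-(8) and DD1 females. Subtraction of the eggshell share gave 0 for CSE-/-, 3 for CBS-/-(5), 4 for CBS-/-(8), 5 each for DD1 and DD2, 1 for DD2 against CBS-/-(8), 3 for CBS-/-(8) against CBS-/-(5), 0 for the difference, and 10 and 12 for the backcross against the control and DD2. Of the settings chosen after seeing the data, subtraction of the germline and yolk share gave 0 in CSE-/-, 14 in CBS-/-(8), 2 for DD2 against CBS-/-(8) and 7 for the difference. Leaving out libraries of over 20% female RNA gave 3 in MST-/-, 4 for CSE-/-, 14 for DD2 and 13 for DD1 against CBS-/-(5). For comparisons with CBS-/-(8) it left 1 library of that strain, and no count is given. DESeq2 gave 1 in MST-/-, 3 in CSE-/- and 0 in DD1 females. Leaving out 1 library at a time gave 0 to 3 for CSE-/-, 5 to 16 for CBS-/-(5), 17 to 25 for CBS-/-(8), 3 to 8 for DD1, 4 to 7 for DD2, 10 to 26 for DD1 against CBS-/-(5), 4 to 18 for DD2 against CBS-/-(8), 25 to 33 for CBS-/-(8) against CBS-/-(5), 9 to 30 for the difference, 18 to 24 and 23 to 29 for the backcross against the control and DD2, 22 to 38 for thorax against whole males, and 0 to 1, 0 to 0 and 0 to 1 in CBS-/-(5), CBS-/-(8) and DD2 females. The cause of these moves was not tested. Groups of 3 libraries, uneven female RNA in the males and uneven member RNA in the thoraxes limit these counts, and members under 1 CPM rest on few counts.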
